A study of Danio rerio with 4 samples.

Results

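Solute carrier genes are described here in 2 lists of genes whose expression differed between sorted cells of the adult zebrafish pancreas. The genes were those whose name begins with slc and a family number, or with slco, leaving out slc4a4b. There were 47 such genes among 3020 distinct listed genes, 33 of them in the table of replicate 1, 17 in that of replicate 2 and 3 in both. They belong to 27 families and were placed in 12 classes by the substrate of the family. The cells were centroacinar cells (CAC), the duct-tip cells that lie within the acini, and non-centroacinar cells (non-CAC), separated by fluorescence-activated sorting from dissociated pancreas of the AB strain. There were 2 libraries per group, 1 of each in each replicate, and each table compares the CAC and the non-CAC library of 1 replicate. The labels name no transgene or stain used for the sort and give no source of fish for either replicate. Technical and biological differences between the 2 replicates therefore cannot be told apart.

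Solute carriers are membrane proteins that move ions, nutrients, neurotransmitters and metabolites across plasma and organelle membranes, by facilitated diffusion, exchange, or cotransport with sodium, protons or chloride. In the exocrine pancreas, carriers of bicarbonate, chloride, sodium and protons serve the secretion of alkaline fluid by the ducts. Amino acid carriers feed the synthesis of digestive enzymes in acinar cells.

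Each table gives ratios between the libraries of a replicate and no level per library, and its headers do not say which library is the numerator. The groups are therefore called the numerator library and the denominator library, a ratio above 1 means a higher value in the numerator library, and which of them is CAC is not stated and was not assigned from the values. Estimated counts per library were recovered for every listed gene from the deposited pair of fold columns (a posterior fold and an uncorrected fold), which proved to be linked exactly. The scaling factor inferred for the numerator library was 1.71 times that of the denominator library in replicate 1 and 0.802 times in replicate 2. These are not measured sequencing depths. Counts below are estimated reads before this scaling. Count ratios are after it, each with an exact Clopper-Pearson 95% interval that covers counting error only. Where a library had 0 counts, the ratio is a bound computed against 3 counts in that library. With 1 library per group in a table, no test within a table was possible.

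The labels were checked against markers. Of 12 centroacinar and ductal markers, among them cftr, nkx6.1 and her15.1, 10 were listed in replicate 1 and 11 in replicate 2, all below 1, with summed normalised counts of 5804 in the numerator library and 630530 in the denominator library of replicate 1, and 1013 in the numerator and 9971 in the denominator library of replicate 2. The denominator library thus held more of these markers' counts in both replicates. Of 20 acinar markers, 17 were listed in replicate 2, all above 1, and 0 in replicate 1. Of 12 islet markers ins alone was listed, above 1 in replicate 2. Leukocyte markers were listed above 1 in both, 6 genes in each replicate, with summed normalised counts of 824 in the numerator and 1.31 in the denominator library of replicate 1, and 750 in the numerator and 173 in the denominator library of replicate 2. Oocyte markers were listed above 1 in replicate 1 (2 genes, 500 normalised counts in the numerator library and 0 in the denominator library) and below 1 in replicate 2 (8 genes, 116 in the numerator library and 4136 in the denominator library). No hepatocyte or intestinal marker was listed in either table. Endothelial markers were listed in replicate 1 alone, 2 above 1 and 1 below, and among 6 erythrocyte markers hbaa1 alone was listed, above 1 in replicate 2. The part of these other cell types in the solute carrier ratios was not tested. In such libraries, fewer cells of a type and less RNA per cell cannot be told apart.

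The solute carrier genes lay mostly above 1 in replicate 1 and mostly below 1 in replicate 2. In replicate 1, 27 of 33 (81.8%) lay above 1, where 66.6% of all listed genes did, and 6 (18.2%, 95% interval 6.98% to 35.5%) lay below, where 33.4% did. In replicate 2, 14 of 17 (82.4%, interval 56.6% to 96.2%) lay below 1, where 57.1% of listed genes did, and 3 lay above, where 42.9% did. These intervals cover counting of genes only, and both contain the share over all listed genes. The majority side was that of each whole table. In replicate 1 this ended once genes with 0 counts in a library were left out, since 28.6% of the 21 remaining solute carrier genes lay below 1, against 55.8% of all 993 such genes. Of the 47 genes, 3 were in both tables, which is 9.09% of those listed in replicate 1 and 17.6% of those listed in replicate 2. Over all genes, 352 were in both, which is 11.7% of distinct genes, 19.4% of the replicate 1 list and 22.6% of the replicate 2 list. The opposite leanings therefore come from different genes but for these 3.

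**Figure D1:**
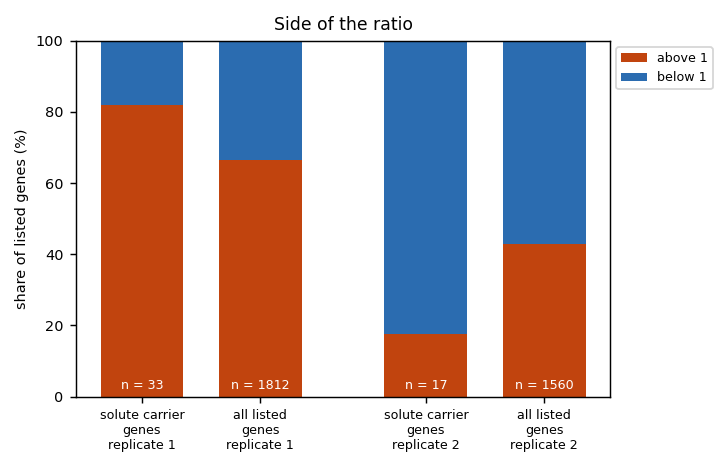
Share of listed genes above 1 and below 1 (y axis, percent) for the solute carrier genes and for all listed genes, in each replicate. Of the solute carrier genes 81.8% lay above 1 in replicate 1 and 17.6% in replicate 2, against 66.6% and 42.9% of all listed genes.

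The tables differ in the sizes of ratio and in the lowest counts that they list. In replicate 1 the listed posterior ratio nearest to 1 was 35.3 above 1 and 0.0571 below 1, and in replicate 2 it was 2.98 and 0.325, in the authors' deposited tables. Above 1 the lowest numerator counts of any listed gene were 104 in replicate 1 and 12.8 in replicate 2. Below 1 the lowest denominator counts were 25.1 in replicate 1 and 17.7 in replicate 2. A carrier gene absent from a table may have been similar in both libraries, too low, or changed by less than these limits. For example, no solute carrier gene listed in replicate 2 alone had a posterior ratio there outside the gap of the replicate 1 list, apart from slco1f2, SLC7A13 and slc6a4b.

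**Figure D2:**
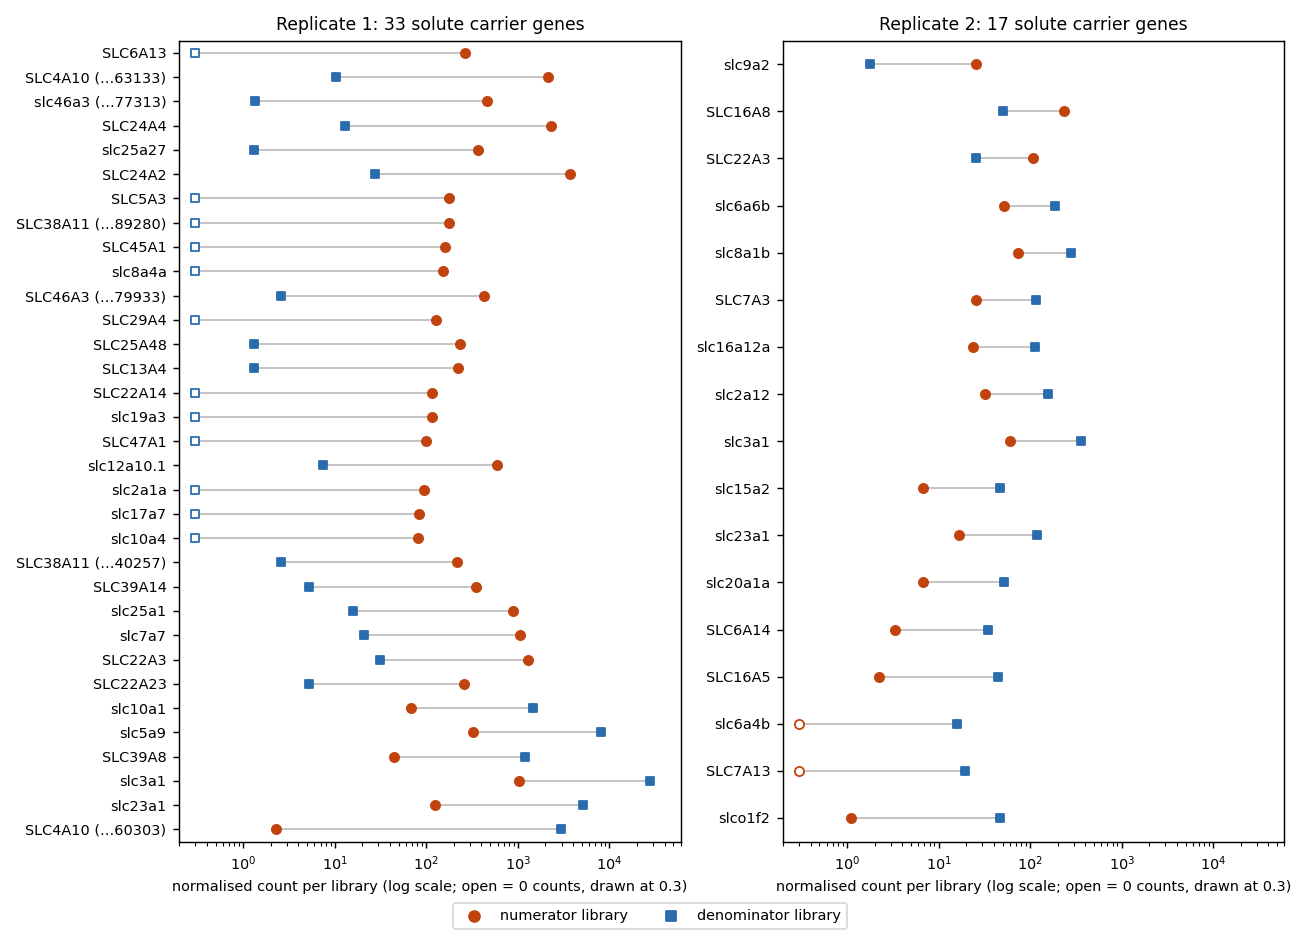
Normalised counts (x axis, log scale) of every listed solute carrier gene in the numerator library (circles) and the denominator library (squares) of replicate 1 (left) and replicate 2 (right), ordered by posterior ratio. Open symbols are 0 counts, drawn at 0.3. In replicate 1, 12 of the 27 genes above 1 had 0 counts in the denominator library, and in replicate 2, 2 of the 14 below 1 had 0 in the numerator library.

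Carriers found in both tables were slc23a1, slc3a1 and SLC22A3, and each kept its side. The gene slc23a1 (ENSDARG00000015033, Zv9 chromosome 21, 28835477 to 28855195) encodes a sodium-coupled ascorbate transporter. It had 161 counts in the numerator library and 3966 in the denominator library of replicate 1, and 15 numerator and 134 denominator counts in replicate 2. It was lower in the numerator library in both pairs, at a count ratio of 0.0237 (0.0202 to 0.0278) in replicate 1 and 0.140 (0.0760 to 0.239) in replicate 2. Its ratio was thus farther from 1 in replicate 1 than in replicate 2, by more than counting error. However, the replicate 1 list held no posterior ratio between 0.0571 and 1, where that of replicate 2 would have fallen.

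The heavy subunit gene slc3a1 (ENSDARG00000017165, Zv9 chromosome 13, 10214267 to 10237603) encodes the partner protein that carries cystine and dibasic amino acid exchangers to the cell surface. It had 1344 counts in the numerator library and 21167 in the denominator library of replicate 1, and 54 numerator and 405 denominator counts in replicate 2. It was detected in all 4 libraries and was lower in the numerator library of both pairs. The count ratio was 0.0372 (0.0351 to 0.0392) in replicate 1 and 0.167 (0.123 to 0.221) in replicate 2. The intervals do not overlap each other. Both lie below 1, but listing selected genes for this, with a posterior probability of difference of at least 0.99. A posterior ratio like that of replicate 2 would also have fallen in the gap of the replicate 1 list, between 0.0571 and 1.

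SLC22A3 (ENSDARG00000058775, Zv9 chromosome 17, 6095635 to 6112613), a polyspecific organic cation transporter gene, was the one member above 1 in both. It had 1690 counts in the numerator library and 24 in the denominator library of replicate 1, and 97 numerator and 29 denominator counts in replicate 2. It was higher in the numerator library of both pairs. The count ratio was 40.96 (27.6 to 64.5) in replicate 1 and 4.17 (2.73 to 6.55) in replicate 2. Its replicate 1 ratio lay near the inner edge of that table, where it ranked 1182 of the 1206 genes above 1 by posterior ratio in the authors' deposited table.

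Of the 352 genes in both tables, 216 (61.4%) lay below 1 in both and 115 (32.7%) above 1 in both. The solute carrier counts of 2 and 1 are too few to be set against these shares. The log2 posterior ratios of all 352 genes were tested with limma, which takes each replicate pair as a block. At a threshold of 0.05 on p-values adjusted by Benjamini and Hochberg's method, limma called 4 genes below 1 (1.14%) and 0 above 1 (0%). Without adjustment it called 104 below and 93 above. No solute carrier gene was among any of these. The mean log2 ratio of slc23a1 was -4.08 (SE 2.19, limma adjusted p = 0.102, below 1 in 2 of 2 replicates), that of slc3a1 was -3.66 (SE 2.19, limma adjusted p = 0.120, below 1 in 2 of 2), and that of SLC22A3 was 3.66 (SE 2.19, limma adjusted p = 0.120, above 1 in 2 of 2). The standard deviation of the log2 posterior ratio between the replicates was 1.84 for slc23a1, 1.54 for slc3a1 and 2.31 for SLC22A3. The SE from limma is the same for all 3 because it rests on a spread pooled over the 352 genes, not on these values. That spread includes the unlike limits of the 2 lists. The posterior ratios nearest to 1 were 35.3 and 0.0571 in replicate 1, and 2.98 and 0.325 in replicate 2. How much of the SE and the p-values comes from these limits was not tested.

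**Figure D3:**
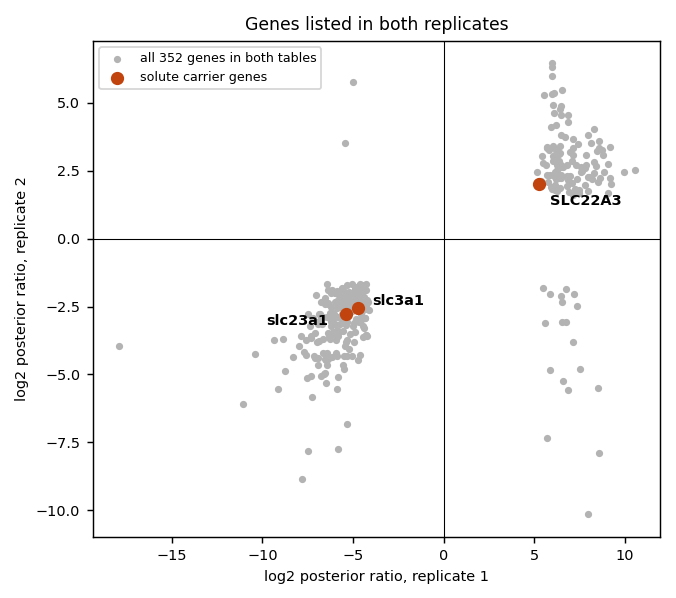
Log2 posterior ratio in replicate 1 (x axis) and in replicate 2 (y axis) of the 352 genes in both tables (grey), with the 3 solute carrier genes marked. All 3 lie in the quadrants where both replicates have the same side.

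Amino acid and peptide carriers formed the largest class, with 11 genes of 5 families. In replicate 2 all 7 that were listed lay below 1, where 57.1% of all listed genes did. In replicate 1, 4 of 5 lay above 1, where 66.6% of all listed genes did, slc3a1 being the exception. These counts are too small to set the class apart from its tables. Besides slc3a1, the replicate 2 genes were 3 of family 6, 2 of family 7 and slc15a2. The taurine transporter gene slc6a6b had 46 counts in the numerator library and 210 in the denominator library, a ratio of 0.273 (0.194 to 0.377). The cationic amino acid transporter gene SLC7A3 had 23 numerator and 131 denominator counts, a ratio of 0.219 (0.134 to 0.343). These had the smallest differences of the class. Their intervals lie below 1, which is no separate support, since listing selected ratios away from 1.

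The di- and tripeptide transporter gene slc15a2 had 6 counts in the numerator library and 52 in the denominator library of replicate 2, a ratio of 0.144 (0.0505 to 0.335). SLC6A14, whose mammalian protein takes up neutral and cationic amino acids with sodium and chloride, had 3 numerator and 39 denominator counts, a ratio of 0.0959 (0.0190 to 0.302). The serotonin transporter gene slc6a4b had 0 counts in the numerator library and 18 in the denominator library, at least 4.81-fold lower in the numerator library. SLC7A13 (ENSDARG00000089192, Zv9 chromosome 17, 50055604 to 50068229) had 0 numerator and 22 denominator counts, at least 5.88-fold lower in the numerator library. In mouse and human kidney, the SLC7A13 protein is a light subunit that pairs with the heavy subunit encoded by SLC3A1, and both genes lay below 1 in replicate 2. The table of current names gives this identifier a clone name in place of SLC7A13, so its identity is less sure than that of slc3a1. These 4 genes rest on 52 or fewer counts in the higher library.

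In replicate 1 the amino acid genes above 1 were SLC6A13, slc7a7 and 2 genes named SLC38A11. SLC6A13, whose mammalian protein carries GABA and taurine, had 342 counts in the numerator library and 0 in the denominator library (at least 66.7-fold higher). The light subunit gene slc7a7, whose mammalian protein pairs with the other heavy subunit, SLC3A2, had 1392 counts in the numerator library and 16 in the denominator library, a ratio of 50.9 (31.2 to 89.3). Neither slc3a2a nor slc3a2b, the zebrafish genes of that heavy subunit, was in either table. The 2 genes of the orphan carrier SLC38A11 had 230 numerator and 0 denominator counts (ENSDARG00000089280) and 281 numerator and 2 denominator counts (ENSDARG00000040257). The second of them had a ratio of 82.1 (22.5 to 682).

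**Figure D4:**
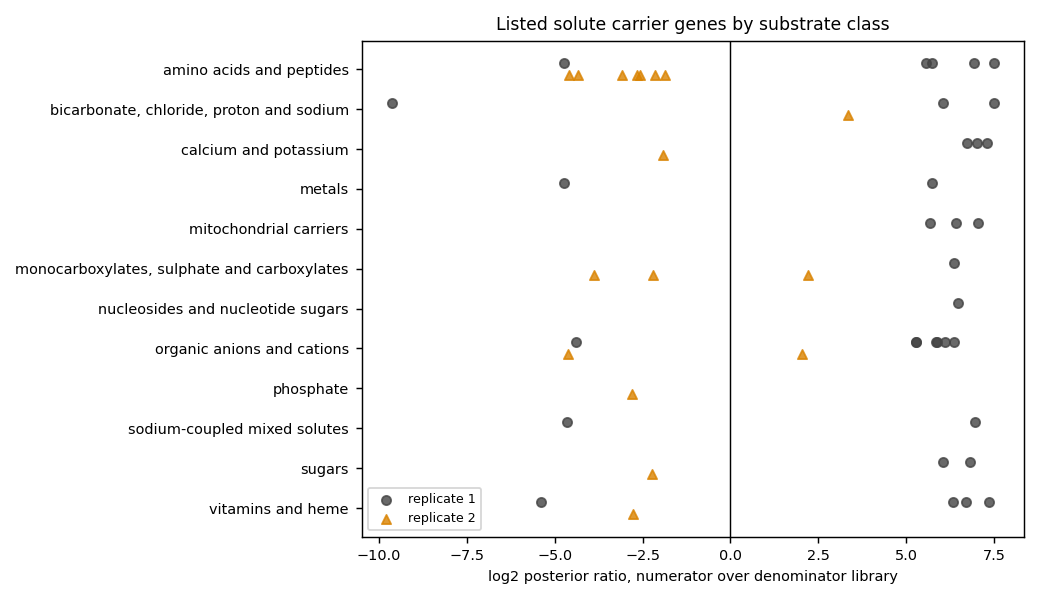
Log2 posterior ratio, numerator over denominator library (x axis), of each listed solute carrier gene by substrate class, with circles for replicate 1 and triangles for replicate 2. All 7 amino acid and peptide genes of replicate 2 lie below 0, and the 3 calcium and potassium and the 3 mitochondrial carrier genes of replicate 1 lie above 0, where 57.1% of all listed genes of replicate 2 lay below 1 and 66.6% of those of replicate 1 above.

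Among carriers of bicarbonate, chloride, protons and sodium, 2 genes both named SLC4A10 lay on opposite sides of 1 in replicate 1. SLC4A10 encodes a sodium-driven bicarbonate transporter best known from neurons. ENSDARG00000060303 had 3 counts in the numerator library and 2283 in the denominator library, a 1301-fold lower value in the numerator library (interval 445 to 6314). Its posterior ratio was the fifth lowest of the 606 genes below 1, at a log2 of -9.64 in the authors' deposited table. ENSDARG00000063133, now named slc4a10a, had 2812 counts in the numerator library and 8 in the denominator library, a ratio of 206 (104 to 477). It ranked 254 of the 1206 genes above 1 by posterior ratio in the authors' deposited table. The loci of both could not be read from the table. Neither gene was listed in replicate 2, so this opposition rests on 1 pair of libraries.

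The others of this class were slc12a10.1 and slc9a2. The sodium-chloride cotransporter family gene slc12a10.1 had 766 counts in the numerator library and 6 in the denominator library of replicate 1, a ratio of 78.2 (34.2 to 204). The sodium-proton exchanger gene slc9a2 (Zv9 chromosome 9, 7004554 to 7033166) had 23 counts in the numerator library and 2 in the denominator library of replicate 2, a ratio of 14.3 (3.54 to 125). It was the highest solute carrier ratio of that replicate and rests on few counts. Of 30 carrier genes looked up whatever their values, for ductal secretion, sugar and amino acid supply, islet and synaptic vesicles, and red cells, slc2a1a alone was listed. The 29 others included the ductal genes slc4a4a, slc4a2a, slc4a2b, slc12a2, slc26a3.1, slc26a3.2, slc26a6, slc26a6l, slc9a1a and slc9a1b, the islet granule zinc carrier gene slc30a8, and the amino acid exchanger genes slc7a5 and slc7a11. Of all 449 solute carrier symbols in the current name table, 10.02% were listed in either table. The 30 genes are too few to be set against that share.

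Calcium and potassium carriers lay above 1 in replicate 1, with 3 genes, and below 1 in replicate 2, with 1 gene. These were the majority sides of the tables, with 66.6% of all listed genes above 1 in replicate 1 and 57.1% below 1 in replicate 2. SLC24A2 and SLC24A4, whose mammalian proteins exchange sodium for calcium and potassium, were detected in both libraries of replicate 1. SLC24A2 had 4856 counts in the numerator library and 21 in the denominator library, a ratio of 135 (88.4 to 219), and SLC24A4 had 2991 numerator and 10 denominator counts, a ratio of 175 (95 to 365). The sodium-calcium exchanger gene slc8a4a had 197 counts in the numerator library and 0 in the denominator library of replicate 1, at least 38.4-fold higher. Its relative slc8a1b lay below 1 in replicate 2, with 66 counts in the numerator library and 314 in the denominator library, a ratio of 0.262 (0.198 to 0.343).

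Carriers of organic anions and cations, 8 genes of 5 families, lay above 1 in 6 of 7 listings of replicate 1, where 66.6% of all listed genes did. The exception was slc10a1 (Zv9 chromosome 20, 28887565 to 28893348), which in mammals encodes the sodium-coupled bile acid carrier of hepatocytes. It had 89 counts in the numerator library and 1110 in the denominator library, a ratio of 0.0469 (0.0374 to 0.0582). None of 7 hepatocyte and intestinal markers was listed, but these lists also omit genes that are similar in both libraries. The part of hepatocytes in this ratio was not tested. The other family 10 gene, slc10a4, had 107 counts in the numerator library and 0 in the denominator library. The vesicular glutamate transporter gene slc17a7, the proton-coupled organic cation exporter gene SLC47A1 and SLC22A14 (SLC22A13 in the current name table) had 108, 129 and 153 counts in the numerator library and 0 in the denominator library. The bounds for these 4 genes ran from at least 20.9-fold to at least 29.8-fold higher in the numerator library. The orphan gene SLC22A23 had 335 counts in the numerator library and 4 in the denominator library, a ratio of 48.98 (18.96 to 181). All 4 family 22 listings, of 3 genes, lay above 1, with SLC22A3 counted in both replicates. Of all listed genes, 66.6% lay above 1 in replicate 1 and 42.9% in replicate 2, and these listings are too few to set the family apart. In replicate 2, slco1f2, of the organic anion transporting polypeptides, had the lowest posterior ratio of the solute carrier genes, with 1 count in the numerator library and 53 in the denominator library, a 42.5-fold lower value in the numerator library (interval 7.31 to 1710).

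Monocarboxylate carriers of family 16, 3 genes, were listed in replicate 2 alone, 2 below 1 and 1 above. Of all listed genes of that replicate, 57.1% lay below 1, and only 11.7% of distinct listed genes were in both tables. The 3 genes are too few to be set against these shares. SLC16A8, whose mammalian protein exports lactate from the retinal pigment epithelium, had 211 counts in the numerator library and 56 in the denominator library, a ratio of 4.66 (3.48 to 6.43). Its relatives lay below 1, slc16a12a, of a creatine carrier, with 21 numerator and 125 denominator counts (ratio 0.212, 0.125 to 0.334) and SLC16A5 with 2 numerator and 50 denominator counts (ratio 0.0499, 0.00588 to 0.190). The sulphate carrier gene SLC13A4, of the same class, had 293 counts in the numerator library and 1 in the denominator library of replicate 1, a ratio of 171 (30.5 to 6792). The phosphate carrier gene slc20a1a had 6 counts in the numerator library and 58 in the denominator library of replicate 2, a ratio of 0.129 (0.0455 to 0.298).

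The 3 genes of the sugar class, which leaves out family 5, each lay on the majority side of their own table. Replicate 1 had 66.6% of all its listed genes above 1, while 57.1% of those of replicate 2 were below 1. So few genes cannot set the class apart from its tables. The glucose transporter gene slc2a1a had 122 counts in the numerator library and 0 in the denominator library of replicate 1, at least 23.8-fold higher, and SLC45A1, of a proton-coupled sugar carrier, had 211 numerator and 0 denominator counts, at least 41.2-fold higher. In replicate 2, slc2a12 had 29 counts in the numerator library and 175 in the denominator library, a ratio of 0.207 (0.134 to 0.307). Among sodium-coupled carriers of family 5, slc5a9, of a mannose and glucose carrier in mammals, lay below 1 in replicate 1 with 421 numerator and 6231 denominator counts, a ratio of 0.0395 (0.0357 to 0.0436). The myo-inositol carrier gene SLC5A3 had 232 counts in the numerator library and 0 in the denominator library there, at least 45.2-fold higher.

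Metal, vitamin and mitochondrial carriers were listed mostly in replicate 1, which held 33 solute carrier genes against 17 in replicate 2. Over all genes the lists held 1812 and 1560. By current symbol, 2 mitochondrial carriers were also listed in replicate 2. These classes are too small to be set apart by this. Of the metal importers of family 39, which bring zinc and manganese into the cytosol, SLC39A8 had 57 counts in the numerator library and 920 in the denominator library, a ratio of 0.0365 (0.0272 to 0.0474), and SLC39A14 had 459 numerator and 4 denominator counts, a ratio of 67.1 (26.04 to 247). These relatives thus lay on opposite sides in replicate 1, whose list held only ratios far from 1. Besides slc23a1, the vitamin and heme class held the thiamine carrier gene slc19a3, with 151 counts in the numerator library and 0 in the denominator library (at least 29.4-fold higher), and the lysosomal carrier genes slc46a3 (ENSDARG00000077313) with 598 numerator and 1 denominator count and SLC46A3 (ENSDARG00000079933) with 552 numerator and 2 denominator counts. The ratio of the first of these was 343 (62.5 to 13838) and that of the second 161 (44.5 to 1336). SLC29A4, whose mammalian protein carries monoamines and adenosine, had 167 numerator and 0 denominator counts, at least 32.6-fold higher in the numerator library.

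All 3 mitochondrial carriers lay above 1 in replicate 1, as did 66.6% of all listed genes. The citrate carrier gene slc25a1 had 1144 counts in the numerator library and 12 in the denominator library, a ratio of 55.8 (31.8 to 108). SLC25A48 had 303 numerator and 1 denominator count, a ratio of 177 (31.6 to 7023), and slc25a27, of the uncoupling protein family, had 475 numerator and 1 denominator count, a ratio of 278 (49.6 to 10997). The upper ends of the last 2 intervals are wide because they rest on 1 count.

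Solute carrier genes above 1 in replicate 1 had few counts in the denominator library, as did all genes above 1 there. Of the 27, 12 (44.4%) had 0 counts there, where 63.6% of all genes above 1 in that table did. Another 6 had 1 to 3 and 9 had 4 or more, where 216 and 223 of all 1206 genes above 1 did. The median over the 27 was 303 counts in the numerator library and 1 in the denominator library, against 297 and 0 over all genes above 1. Each of the 6 genes below 1 was detected in both libraries, at medians of 125 numerator and 3124 denominator counts. Most genes below 1 in that whole list were too, since only 8.58% of them had 0 counts in the numerator library. In replicate 2, 2 of the 14 genes below 1 (14.3%) had 0 counts in the numerator library, where 11% of all genes below 1 did, and 0 of the 3 above 1 had 0 counts in the denominator library, where 9.7% of all genes above 1 did. The median log2 posterior ratio above 1 in replicate 1 was 6.36 over the solute carrier genes and 6.55 over all listed genes, and below 1 it was -4.74 and -5.10, in the authors' deposited table. In the authors' deposited table of replicate 2 it was 2.203 and 2.61 above 1, and -2.72 and -2.81 below 1.

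Other transport proteins were listed in smaller numbers, which were not set against the sizes of their families. Genes of ABC transporters, ATPase pumps and aquaporins numbered 4, 3 and 3 in replicate 1 and 1, 2 and 3 in replicate 2. All 4 ABC genes of replicate 1 lay above 1 and the 1 of replicate 2 below. Chloride and bicarbonate channel genes numbered 6 in replicate 1, 3 on each side, and 2 in replicate 2, both below 1. Of all listed genes, 66.6% lay above 1 in replicate 1 and 57.1% below 1 in replicate 2, and these counts are too small to be set against those shares. Of 22 symbols of proteins that bind, scaffold or supply carriers, the carbonic anhydrase genes ca2 and ca4b lay below 1 in both tables and ca4a above 1 in replicate 1, and the rest were not listed. Of 449 identifiers with a solute carrier symbol in the current name table, 45 (10.02%) were listed in either table, where 7.01% of all 29201 identifiers of that table were. These shares are not matched alike. Of the 3020 distinct listed genes, only 2047 were found there (slc4a4b left out), against 40 of the 47 solute carrier genes. No pair of the 33 solute carrier genes with a readable locus started within 1 Mb of each other.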

How the data were processed

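RNA of sorted CAC and non-CAC was made into TruSeq libraries, per the labels' protocols. RSEM, Zv9 and danRer7 are named without version in the submitters' processing notes, from which Zv9 was taken as the build of the files' loci; no source used here names the program behind the folds. The authors deposited 1 list per replicate with, per the file headers, posterior probabilities between 0 and 1 (of difference, at least 0.99 for every gene) and 2 linear fold ratios.

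Counts were recovered from both folds. The uncorrected fold equals (x + 1)/(y + 1) and the posterior fold (x + b)/(y + b), a form inferred from the values and not stated in the headers. The offset b, computed from each gene with a 0, varied by at most 1.25e-10 within a table. The step of 1 count was the candidate at which the largest share of genes with a 0 in the other library came out whole. That share was 0.303 for the numerator and 0.167 for the denominator library of replicate 1. In replicate 2 it was 0.323 for the numerator and 0.495 for the denominator library, so in no library was it a majority. All 743 values tested in replicate 1 and 1756 in replicate 2 (under 100 counts, genes with no 0) then fell within 0.001 of a multiple of 0.01 count, and 68.2% and 62.2% within 0.05 of a whole count. On simulated tables, counts were recovered for 1810 of 1812 and 1558 of 1560 genes. Those tables were built with the same form, offset and steps, so they check the inversion alone and cannot test the form. Normalised counts are counts divided by the relative scaling factor inferred for the library. Estimated counts can be fractional where reads are apportioned among similar genes. Of the solute carrier genes, 25 of 33 in replicate 1 and 3 of 17 in replicate 2 had such a count, so values of close copies are uncertain. Total depth is unknown. PCR duplicates are not separated, so intervals cover counting error only.

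Libraries of the same replicate number share a table, which pairs them. limma 3.58.1 (R 4.3.3) tested genes in both tables, whose selection for large ratios its p-values carry. On simulated data of 352 genes, 200 of them moved 6 log2 units from 0, it found 96% of these and made 3 false calls. The simulated noise had a standard deviation of 2.20 per replicate. In the data, an SE of 2.19 for a mean of 2 replicates means a larger spread per replicate, so the 96% is likely too high. Recovery at smaller shifts was not tested. The mean log2 ratios of slc23a1, slc3a1 and SLC22A3 (-4.08, -3.66 and 3.66) were of such a smaller size. Named genes were members in both tables, the 5 farthest from 1 on each side of each table, up to 4 per class, and 30 looked up whatever their values; the remaining members were added. Members, classes and lists were chosen with earlier results of these data known. Of 47 members, 40 were found in the table of current names.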

Additional observations from a re-analysis of the deposited data

How the results depend on the processing

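The solute carrier genes on the same side in both tables, and at least 2-fold from 1 in each, numbered 2 below 1 and 1 above 1. Both counts were the same at a 4-fold threshold, with the uncorrected fold, without genes at 0 counts, with members found by current symbol, and, as choices made after seeing the data, with ratios of recovered counts and with at least 50 counts in the higher library. A posterior probability of equal expression under 0.001 in both tables left 1 below 1 and 0 above 1. Centring each table on its median log2 ratio (6.02 in replicate 1, -1.90 in replicate 2) left 0 below and 0 above at the same 2-fold minimum. The genes slc23a1 and slc3a1 still lay below the median in both replicates. In replicate 2, at log2 ratios of -2.78 and -2.56, they did so by less than 2-fold. SLC22A3, at 5.29 in replicate 1, lay below the median there. The paired fit (replicate block, limma, adjusted p of 0.05) called 0 below and 0 above. Leaving out 1 replicate gave 6 to 14 below 1 and 3 to 27 above 1, since the remaining table then decides alone. The share of solute carrier genes below 1 in replicate 1, 18.2%, was 42.4% after centring, where the share over all genes is 50%, and 0% among the 8 genes with whole counts (a choice made after seeing the data), where 16.5% of all such genes lay below. Without genes at 0 counts it was 28.6%, against 55.8% of all such genes. The share in replicate 2, 82.4%, stayed within its interval under the 7 alternatives run, from 76.5% after centring (50% of all genes) to 90.0% at a posterior probability of equal expression under 0.001 (55.7% of all such genes). No level between genes was compared, since transcript lengths were not used.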

Other observations

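Another 6 listed genes carry a solute carrier symbol in the current name table but a clone name in the deposited tables, so the counts above do not include them. In replicate 1, zgc:136678 (slc25a24l, of a mitochondrial carrier) had 463 counts in the numerator library and 0 in the denominator library. The genes si:dkey-178e17.1 (SLC25A1) and CU855815.1 (SLC2A13, of a proton and myo-inositol carrier) had 226 and 151 counts in the numerator library and 0 in the denominator library. CU571162.1 (slc52a3-2a, of a riboflavin carrier family) lay below 1, with 26 counts in the numerator library and 525 in the denominator library. In replicate 2, si:dkey-204f11.59 (SLC25A23) had 5 counts in the numerator library and 43 in the denominator library, and BX088718.1 (slc25a51b) had 2.62 and 44.5. By either name, 5 of 5 listed mitochondrial carriers lay above 1 in replicate 1, where 66.6% of all listed genes did, and 2 of 2 lay below 1 in replicate 2, where 57.1% did. No gene of the family was in both tables.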
